A study of Rattus norvegicus and synthetic construct with 4 samples.

Results

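The genes described here encode RNA polymerase II, the factors that start and elongate its transcripts, and proteins that modify or bind chromatin. Human DNA elements were taken as members when their midpoint lay within 2 kb of the transcription start site of 1 of 37 such genes (hg19). The start sites are given to the whole kilobase, so distances are not read more finely than that. The rule found 23 elements at 20 genes, of 3378 elements in the count table. Of these genes, 17 had 1 element and 3 had 2 elements (RBBP4, TCEB1 and GTF2F1). Apart from the element of POLR2F at 1707 bp, the midpoints lay between -38 and 888 bp from the stated positions. Gene names were paired with the positions by the order in which both were listed. No human annotation was used to check them, and whether an element is exonic, intronic or in the promoter proper, and which other gene it may serve, was not examined.

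The elements are 198 bp long and were defined in human pancreatic islets by CAGE, which maps the 5' ends of transcripts. In the STARR-seq assay each plasmid carries an element within its own reporter transcript, so RNA relative to plasmid DNA measures the reporter output of that element. Each plasmid also carries a random barcode of 16 bases that marks it as a separately made copy. The pool was electroporated into INS1 832/13, a rat insulinoma line that stands in for pancreatic beta cells, and RNA was collected after 24 h. There were 3 RNA libraries, which the labels describe as biological replicates, and 1 library of the plasmid input. All of them used the same plasmid pool, the cells received no other treatment, and the human elements were read out by the proteins of a rat tumour line.

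RNA polymerase II transcribes protein-coding genes. At a promoter it is joined by the general factors TFIIA, TFIIB, TFIID, TFIIE and TFIIF, of which TFIID carries the TBP-associated factors (TAFs). After initiation the polymerase pauses, and the kinase P-TEFb and the factor DSIF control its release into elongation. Histone acetyltransferases and deacetylases change the chromatin around promoters, and factors such as SP1 bind DNA in many promoters of broadly active genes.

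Activity is given as normalised RNA over normalised plasmid DNA, in multiples of the centre of the library that TMM normalization sets at 1. It is relative to the other elements and not to a control sequence. The RNA libraries held 211117, 197554 and 218571 counts and the plasmid DNA library held 1079728 counts. The member elements took 0.990% ± 0.063 of all RNA counts (SD, n = 3) and 0.567% of all plasmid DNA counts. They were carried by 192 barcodes, from 2 to 36 per element with a median of 5, against a median of 6 over all elements. Plasmid DNA counts per member ranged from 48 to 1299. The 3 RNA libraries are labelled as biological replicates, but the 1 plasmid DNA library is shared by all ratios, so SDs leave out its error.

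The strongest member was the element of KAT5, and its 5 plasmids are shown by barcode because the value rests on them alone. The barcodes are given from most to fewest RNA counts, with no base marked.

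KAT5 barcode 1: atattatgggtatgtc
KAT5 barcode 2: gataatttttagctga
KAT5 barcode 3: gacatcgacgattagc
KAT5 barcode 4: ctttgtttcattgaat
KAT5 barcode 5: tcggaaaccgttgggt

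The first KAT5 plasmid had 57, 48 and 58 RNA counts in replicates 1, 2 and 3, over 11 plasmid DNA counts. The plasmid atattatgggtatgtc was therefore at 44.4, 39.1 and 43.9 times the centre in the 3 libraries. The plasmid ctttgtttcattgaat had 11, 20 and 49 RNA counts over 44 plasmid DNA counts, or 2.14, 4.07 and 9.28 times the centre. All 5 plasmids were detected in all 3 RNA libraries and had a mean ratio above 1, from 5.16 to 42.5 times the centre. Separate copies of the same sequence thus differed widely, and a single copy also varied between libraries. KAT5 barcode 2 was at 6.66, 22.9 and 11.7 times the centre. The copy with fewest plasmid DNA counts (11) had the highest ratios and the copy with most (44) had the lowest. The part of DNA counting error in this range was not tested.

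Among the 23 member elements, 4 gave more RNA than the centre of the library. The call is an adjusted p under 0.05 (Benjamini-Hochberg) from edgeR's quasi-likelihood fit across all 3378 elements. The called elements belonged to KAT5, ABT1, POLR2K and SUPT4H1, and they came from different functional groups. Over the whole library 8.88% of elements were called above the centre. With 4 calls among 23, the members' share of 17.4% rests on few elements and was not tested against the rest. The 4 called elements held 72.3% ± 2.5 of the members' RNA counts (SD, n = 3) and 37.9% of their plasmid DNA counts. KAT5, ABT1 and POLR2K were called under all 12 alternative fits, with log2 ratios from 3.10 to 4.73, from 2.80 to 3.84 and from 1.76 to 2.76. The fit without a filter, 1 of the 12, repeats the main fit because the filter removed 0 elements. With library totals in place of TMM the median of all elements moved by -0.73 (log2), and the values of the members moved with it.

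No member was called below the centre in edgeR's test, and 0 members were below it at an unadjusted p under 0.05. Over all elements 0.00% were called below and 26 of 3378 were below at an unadjusted p under 0.05. Limma-voom called 136 of the 3378 elements below and the test with barcodes as the unit called 65 of 3378, with 0 members in each. These shares of the library are small, so 0 among 23 members does not set the members apart. DESeq2 called 0 below and left 12 of the 23 members without an adjusted p.

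The median log2 ratio of the members was 0.20, against -0.03 over all elements. The members' own values ran from -3.20 to 3.83, so the list was widely spread. Above the centre lay 12 of 23 members (52.2%), against 48.8% of all elements. At least 2-fold above it (log2 of 1 or more) were 7 members (30.4%), against 22.7% of all elements, and at or below a log2 ratio of -1 were 4 members (17.4%), against 20.0%. In single RNA libraries the members' median was 0.24, 0.42 and -0.10 (log2 with a pseudocount of 0.5), against -0.11, -0.076 and -0.12 over all elements. With a pseudocount of 5, added to RNA and DNA counts alike, the members' median was 0.45, 0.49 and 0.14. The median over all elements is not given for this pseudocount, so the rise is not read as a trait of the members. Without the barcode that held most RNA in each element, a setting applied to the whole library, the members' median was -0.34 and that of all elements -0.18. The order of the 2 medians was thus reversed in this setting, while the same 4 members were called. The setting removes the highest RNA count by design and takes a larger part from elements with few barcodes. Elements with 2 to 4 barcodes were 11 of the 23 members and 1155 of all 3378 elements. The reversal is therefore given as a description.

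Among the subunits of RNA polymerase II, 6 of 11 listed genes had an element in the count table and 1 of the 6 was called. POLR2K encodes a small zinc-binding subunit that is shared by the 3 nuclear RNA polymerases. Its element on chromosome 8 from 101162790 to 101162987 had 343, 382 and 305 RNA counts over 528 plasmid DNA counts from 15 barcodes. The ratios were 5.57, 6.48 and 4.81 times the centre (5.62 ± 0.84, SD, n = 3), all far above 1. Its log2 ratio was 2.49 ± 0.37 (SE; edgeR adjusted p = 1.36e-07). Of its 15 barcodes, 14 were found in all 3 RNA libraries and 14 had a mean ratio above 1.

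The elements of the large catalytic subunits were not called, and their libraries disagreed. POLR2A encodes the largest subunit, whose tail repeats are phosphorylated during transcription, and its element had 23, 2 and 7 RNA counts over 107 plasmid DNA counts from 3 barcodes. These gave 1.84, 0.168 and 0.545 times the centre, on both sides of 1. POLR2B encodes the other large subunit of the active site, and its element had 0, 26 and 3 RNA counts over 89 plasmid DNA counts from 2 barcodes. A single plasmid held 96.6% of the POLR2B counts, and the ratios were 0, 2.62 and 0.281 times the centre. For POLR2F, a subunit shared among the nuclear polymerases, the ratios were 0, 2.08 and 0.362 times the centre from 3 barcodes. These 3 elements have too few plasmids for a level to be read.

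The elements of POLR2J and POLR2G had fitted ratios below the centre and were not called either. POLR2J encodes a subunit that pairs with POLR2C, and its element had 23, 15 and 10 RNA counts over 170 plasmid DNA counts. Its ratios were 1.16, 0.791 and 0.490 times the centre, and 1 of its 6 plasmids held 72.9% of the RNA counts. POLR2G encodes a subunit of the stalk that sits beside the RNA exit channel. Its element had 3, 1 and 0 RNA counts over 71 plasmid DNA counts from 3 barcodes. This is 0.162 times the centre over the 3 libraries together (Poisson 95% interval of the RNA count 0.044 to 0.414). Every counted barcode had at least 1 RNA count, and the interval does not allow for that, so the ratio may be too high. Of the 12 barcodes paired with this element 3 were counted. No counted barcode of a member had fewer than 10 plasmid DNA counts either, so why the other barcodes were not counted is not known. The median log2 ratio of the 6 polymerase subunit elements was -0.26, and 1 of the 6 was above the centre (16.7%), against 48.8% of all elements. Without 1 RNA replicate the highest log2 ratios of POLR2A, POLR2B and POLR2F were 0.25, 0.51 and 0.26, so the direction of these 3 is not settled. POLR2C, POLR2E, POLR2H, POLR2I and POLR2L had no element in the count table.

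The 3 TFIID elements had log2 ratios of 0.66 to 1.81, and none was called by edgeR. TAF11, a histone-fold subunit that pairs with TAF13 within TFIID, had 121, 48 and 52 RNA counts over 181 plasmid DNA counts from 4 barcodes. The ratios were 5.73, 2.38 and 2.39 times the centre, with replicate 1 the highest, and all 4 plasmids had a mean ratio above 1. Its log2 ratio was 1.81 ± 0.80 (SE; edgeR adjusted p = 0.218, unadjusted 0.0266). Its partner TAF13 had 151, 82 and 171 RNA counts over 551 plasmid DNA counts from 20 barcodes, or 2.35, 1.33 and 2.58 times the centre. Its log2 ratio of 1.06 ± 0.50 (SE) did not pass either (edgeR adjusted p = 0.284). Both were above the centre in 3 of 3 libraries. They passed with limma-voom (adjusted p of 0.00771 for TAF11 and 0.00984 for TAF13) and with barcodes as the unit (0.00229 and 0.00181). Those fits called 511 and 548 of all elements above the centre, against 300 with edgeR. Plasmids of the same element share the libraries, so they are not independent replicates. With DESeq2, which called 419 elements, neither passed (adjusted p of 0.0529 for TAF11 and 0.117 for TAF13). The TAF6 element, from 5 barcodes, ranged from 0.307 to 3.25 times the centre. Its log2 ratio of 0.66 became -0.43 without RNA replicate 3 and -0.088 with library totals, so its direction is not settled. TAF7, TAF10 and TAF12 had no element in the count table.

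Among the other initiation factors the element of ABT1 stood out. ABT1 encodes a nuclear protein that was described as an activator of basal transcription through binding to TBP. The element lies on chromosome 6 from 26597101 to 26597298 and had 493, 549 and 504 RNA counts over 383 plasmid DNA counts. The ratios were 11.03, 12.84 and 10.96 times the centre (11.6 ± 1.07, SD, n = 3), with little spread between libraries. Its log2 ratio was 3.54 ± 0.34 (SE; edgeR adjusted p = 4.02e-14), and it ranked 27 among the 3378 elements. Of its 12 barcodes 11 were found in all 3 RNA libraries and had a mean ratio above 1, and the median over the 12 was 10.3 times the centre.

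The ABT1 plasmids with most and fewest RNA counts are shown because they carry the same element.

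ABT1 barcode with most RNA counts: attcagtctctttttt
ABT1 barcode with fewest RNA counts: cttttcgttctgaaca

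The ABT1 plasmid attcagtctctttttt had 81, 70 and 67 RNA counts over 30 plasmid DNA counts. The plasmid cttttcgttctgaaca had 1, 0 and 0 RNA counts over 14 plasmid DNA counts. The ABT1 plasmid with most RNA counts held 14.1% of its RNA counts, so the total did not rest on any 1 copy.

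The remaining initiation factor elements were not called. GTF2A2 encodes the small TFIIA subunit, and its element was at 1.08, 1.88 and 2.18 times the centre from 9 barcodes. GTF2B encodes TFIIB, which positions the polymerase at the start site, and its element had 53, 66 and 29 RNA counts over 614 plasmid DNA counts from 15 barcodes. The ratios of 0.739, 0.963 and 0.393 lay below 1 in 3 of 3 libraries, with a log2 ratio of -0.52 ± 0.73 (SE; edgeR adjusted p = 0.938). GTF2B had the lowest log2 ratio of the 12 members with at least 5 barcodes. Next were POLR2J at -0.30 ± 1.53 (SE; edgeR adjusted p = 0.999) and the TCEB1 element with 17 barcodes at -0.29 ± 0.72 (SE; edgeR adjusted p = 0.972). GTF2E2, which encodes a TFIIE subunit, had no element in the count table.

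GTF2F1, which encodes the large subunit of TFIIF, had a pair of elements on chromosome 19 that start 132 bp apart and share 66 bp. The element starting at 6393070 was at 3.81, 2.56 and 0.529 times the centre, and the one starting at 6392938 was at 0.179, 0.187 and 0.347 times. Their libraries did not overlap, but each element had only 2 barcodes. The lower element had 1, 1 and 2 RNA counts over 48 plasmid DNA counts, or 0.239 times the centre over the 3 libraries together (Poisson 95% interval of the RNA count 0.065 to 0.613). Of its 10 paired barcodes 2 were counted, and why the other barcodes were not is not known. Each counted barcode had the required RNA count. The interval does not allow for that requirement, so the ratio may be too high. An exact test of a difference over 3 libraries was not run, and the pair is given as a description.

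Of the elongation factors the element of SUPT4H1 was called. SUPT4H1 encodes the small subunit of DSIF, the factor that acts in pausing and in processive elongation. Its element on chromosome 17 from 56429447 to 56429644 had 36 barcodes, the most of any member, with 574, 381 and 388 RNA counts over 1299 plasmid DNA counts. The ratios were 3.79, 2.63 and 2.49 times the centre (2.97 ± 0.71, SD, n = 3), above 1 in 3 of 3 libraries. The log2 ratio was 1.57 ± 0.31 (SE; edgeR adjusted p = 6.79e-05). The call was lost with library totals in place of TMM (log2 ratio 0.83, adjusted p = 0.0749) and with barcode counts of 1 to 4 in RNA taken as 0 (log2 ratio 1.04, adjusted p = 0.171). The mean ratio was above 1 for 24 of its 36 plasmids, and 17 of the 36 were found in all 3 RNA libraries.

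The element of the other DSIF subunit was not called. SUPT5H encodes the large DSIF subunit, and its element had 17, 24 and 21 RNA counts over 145 plasmid DNA counts from 6 barcodes. The ratios were 1.00, 1.48 and 1.21 times the centre (log2 ratio 0.30 ± 1.46, SE; edgeR adjusted p = 0.999). The SE is wide enough to include the value of SUPT4H1, and the difference between the elements of the 2 subunits was not tested. For P-TEFb, CDK9 had no element in the count table. The element of its partner cyclin T1, CCNT1, had 14, 1 and 1 RNA counts over 151 plasmid DNA counts, or 0.794, 0.059 and 0.055 times the centre. Each of the 4 counted CCNT1 barcodes, of 20 paired with the element, was seen in a single RNA library. A single plasmid held 68.8% of the CCNT1 RNA counts. The log2 ratio of CCNT1 was -1.71 ± 1.76 (SE; edgeR adjusted p = 0.861), so it is not read as a low element.

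TCEB1 encodes elongin C, a partner of elongin A in elongation and also an adaptor of ubiquitin ligases. It had a pair of elements on chromosome 8 that start 121 bp apart and share 77 bp. The element starting at 74884414 had 37, 60 and 62 RNA counts over 558 plasmid DNA counts from 17 barcodes, or 0.568, 0.963 and 0.925 times the centre. The element starting at 74884293 had 0, 1 and 1 RNA counts over 56 plasmid DNA counts from 2 barcodes. This is 0.102 times the centre over the 3 libraries together (Poisson 95% interval of the RNA count 0.012 to 0.370). Of 8 barcodes paired with the element 2 were counted, and why the other barcodes were not is not known. Each of the 2 had 1 RNA count, the fewest a counted barcode can have. The interval does not allow for that, so the ratio may be too high. That element had the lowest log2 ratio of all members, -3.20 (edgeR adjusted p = 0.417). TCEB2, which encodes elongin B, had no element in the count table.

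Of the chromatin modifiers, KAT5 had the highest ratio of any member. KAT5 encodes TIP60, a histone acetyltransferase. The element lies on chromosome 11 from 65479624 to 65479821 and had 178, 180 and 205 RNA counts over 113 plasmid DNA counts. The ratios were 13.5, 14.3 and 15.1 times the centre, and all 3 lay above the highest library of ABT1, a difference that was not tested. The log2 ratio was 3.83 ± 0.54 (SE; edgeR adjusted p = 2.23e-08), and the element ranked 13 of 3378. Its SE was larger than that of ABT1 although its libraries were close together. The SE rests on a dispersion modelled across all elements and not on these 3 libraries alone. The KAT5 plasmid with most RNA held 29.0% of the element's counts. Without that plasmid the KAT5 element remained called.

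RBBP4 encodes a histone-binding protein found in several chromatin complexes, among them those of HDAC1 and HDAC2. It had elements on chromosome 1 starting at 33116055 and 33116723, which do not overlap. The first had 72, 94 and 107 RNA counts over 450 plasmid DNA counts from 15 barcodes and was at 1.37, 1.87 and 1.98 times the centre. It was above 1 in 3 of 3 libraries, with a log2 ratio of 0.80 ± 0.60 (SE; edgeR adjusted p = 0.712), and was called only with barcodes as the unit (adjusted p = 0.0296). That test takes plasmids of the same element as replicates, although they share the libraries. The other, from 2 barcodes, was at 1.95, 0.314 and 0.438 times the centre. The deacetylase genes HDAC2 and HDAC3 each had 1 element in the pairing table, with 5 and 3 barcodes, that was not in the count table, and HDAC1 had none within the window in either table.

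Of the DNA-binding factors, SP1 alone had an element in the count table. SP1 binds GC-rich promoter sequences, and its element had 9, 1 and 24 RNA counts over 83 plasmid DNA counts from 4 barcodes. The ratios were 0.929, 0.108 and 2.41 times the centre, so no level can be read from them. NRF1, YY1 and CTCF had no element within the window in either table. In all, 15 of the 37 genes had none in the pairing table and 2 had an element there alone.

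In order of level the called elements were KAT5, ABT1, POLR2K and SUPT4H1, and the lowest library of each lay above the highest library of the next. The spread between libraries leaves out the error of the shared plasmid DNA library. The SEs of the log2 ratios of KAT5 (3.83 ± 0.54) and ABT1 (3.54 ± 0.34) overlap. Without the barcode with most RNA these 2 were at 3.88 and 3.83. Differences between called elements were not tested. TAF11, at 2.38 to 5.73 times the centre, overlapped both POLR2K and SUPT4H1. Below SUPT4H1 each member overlapped its neighbours in this order. All 3 libraries were above the centre for 9 members and below it for 6, and the remaining 8 were mixed. Over all elements 25.8% were above in all 3 libraries and 29.4% below in all 3.

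Members with few plasmids had the wider spread between libraries. The 11 members with 2 to 4 barcodes gave 0 calls. In the whole library 3.38% of the 1155 such elements were called, the lowest of them at a log2 ratio of 2.248. The median SD between libraries was 1.01 times the mean ratio for these members and 0.253 times for the 12 members with at least 5 barcodes. Of those 12, 4 were called (33.3%), against 11.7% of the 2223 elements with at least 5 barcodes in the whole library. A barcode is counted only with an RNA count in at least 1 library, so its number depends in part on activity and these shares are a description.

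Barcodes of the members were detected in more libraries than those of the whole table. In each RNA library 74.1% ± 4.43 of the members' barcodes had a count, against 64.9% ± 2.80 of all barcodes (SD, n = 3 for both). All 3 libraries detected 96 of the 192 member barcodes, against 32.1% of the 35153 barcodes in all. The 4 called elements had 47 of 68 barcodes in all 3 libraries (69.1%), and the other 19 members had 49 of 124 (39.5%). Over the 23 members Pearson's r of log2 ratios (pseudocount 0.5) was 0.46 between replicates 1 and 2, 0.69 between 1 and 3, and 0.70 between 2 and 3. Over all elements it was 0.52, 0.53 and 0.52. These correlations are over elements that share 1 plasmid DNA library and are given without a p.

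The window of 2 kb had little bearing on membership. The member farthest from its stated position was the POLR2F element at 1707 bp, at 0.813 ± 1.11 times the centre from 3 barcodes. The nearest counted element outside the window lay 7647 bp from the TAF10 position, at 0.424 ± 0.199 times the centre from 7 barcodes (SD, n = 3 for both). Within 1 kb were 22 of the 23 members, and all 4 called elements were among them.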

How the data were processed

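The members and the functional lists were chosen with earlier results of these data known. The authors deposited raw counts per barcode, whole numbers with 1 column for plasmid DNA and 3 for RNA, plus a list giving the element of each barcode. The deposited counts are named as filtered, and no member barcode in them had fewer than 10 plasmid DNA counts. The filter, the read counting and any molecular identifiers: not given in the sources used here. Coordinates are hg19, which the submitters' processing notes name, with starts counted from 1.

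Groups came from the sample titles. Counts were summed per element, and a minimum of 2 barcodes and 10 plasmid DNA counts removed 0 elements. RNA was tested against plasmid DNA with edgeR 4.0.16 (R 4.3.3), using TMM factors (0.876, 0.895 and 0.870 for RNA, 1.47 for DNA), a quasi-likelihood fit across all elements and Benjamini-Hochberg adjustment at 0.05. The 1 DNA library has no replicate, so p-values rest on the spread between RNA libraries. That spread is modelled across all elements (common dispersion 0.399) and is not that of the single element alone. The SE is the absolute log2 ratio over the square root of F. The test was also run on simulated counts drawn with the dispersion of the same fit. That simulation had only Poisson error in the DNA library and no filter on barcodes. It therefore cannot show that the p-values are calibrated for these data. Poisson intervals cover RNA counting error only, and PCR reads are not independent molecules. They do not allow for the need of at least 1 RNA count in each counted barcode.

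Alternatives were library totals, DESeq2 1.42.0, limma-voom (limma 3.58.1), barcodes as the unit, a minimum of 5 barcodes or 100 DNA counts, no filter, low RNA counts (1 to 4 in a barcode) taken as 0, omission of the strongest barcode or of 1 RNA replicate, a window of 1 kb and a pseudocount of 5. Python 3.11.15, pandas 2.3.3 and numpy 2.4.6 were used for summaries. Full values are given for called members and for the 3 highest and 3 lowest with at least 5 barcodes. Element sequences were not analysed here.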

Additional observations from a re-analysis of the deposited data

How the results depend on the processing

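The same 4 members were called above the centre with DESeq2, with the minimum of 5 barcodes or of 100 DNA counts, without the strongest barcode and without each RNA replicate in turn (4 to 4 calls). The fit without a filter repeats the main fit, since the filter removed 0 elements, and its result was fixed in advance. Limma-voom called 6 members and barcodes as the unit called 7. No alternative called a member below the centre. Calls above the centre over all elements were 169 with library totals, 511 with limma-voom, 548 when barcodes were the unit, 115 with low RNA counts set to 0, and 193 to 289 without 1 RNA replicate; calls below were 50, 136, 65, 7 and 0 to 3. With library totals the median of all elements moved by -0.73, and with low counts set to 0 by -0.82. The median of the members was -0.54 with library totals, -0.32 with limma-voom, 0.76 with 5 barcodes, 0.74 with 100 DNA counts, -0.62 with low RNA counts set to 0, -0.34 without the strongest barcode, and 0.18 to 0.40 without 1 RNA replicate. Relative to all elements it was 0.23, 0.22 with library totals, 0.24 with low counts set to 0, 0.0071 with limma-voom, 0.17 when barcodes were the unit, -0.16 without the strongest barcode, 0.80 with 5 barcodes, 0.83 with 100 DNA counts, and 0.46, 0.31 and 0.23 without RNA replicates 1, 2 and 3. Of 245 member values under 12 alternatives, 218 kept direction and call, 2 lost a call (SUPT4H1), 5 gained one and 20 changed sign, 0 of these with an adjusted p under 0.05. Among the 218 that kept both, 23 come from the fit without a filter and could not change. The log2 ratio of SP1 was -0.54 with library totals, -0.46 with limma-voom, -0.62 with low counts set to 0 and -0.45 without the strongest barcode. SUPT5H was at -0.43 with library totals and -0.42 with low counts set to 0, TAF6 at -0.088 with library totals, and GTF2A2 at -0.032 with low counts set to 0. With barcodes as the unit the RBBP4 element at the higher coordinate was at 0.22 and POLR2F at 0.036. Without 1 RNA replicate the log2 ratio ranged from -1.51 to 0.25 for POLR2A, -2.79 to 0.51 for POLR2B, -2.43 to 0.26 for POLR2F, -1.42 to 0.26 for the same RBBP4 element, -0.94 to 0.74 for SP1 and -0.43 to 1.15 for TAF6. The cause of these changes was not tested. No paired analysis was possible because there is 1 plasmid DNA library and its label carries no replicate number. The planned search for promoter motifs and its alternative spelling were not run, since no human sequence was used.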
